A study of Mus musculus with 10 samples.

Results

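Isg15 encodes a small ubiquitin-like protein, and 5 further genes were followed with it because their products attach it, remove it or bind it: Usp18, Uba7, Ube2l6, Herc6 and Rnf213. The 6 genes were taken by symbol from the 55385 mouse genes of the deposited table. The rule itself uses no measured value, but the genes were chosen with earlier results of these data known. They were measured by bulk RNA sequencing in 10 libraries of tdTomato-positive neutrophils from squamous cell carcinoma (SCC) grafts. The graft was either the parental Sox2low control line or SCC cells labelled Sox2Hi, and the mice were either left naive or given an antibody to PD-L1 with a CD40 agonist. Control grafts gave 3 naive and 2 treated libraries, and Sox2Hi grafts likewise 3 naive and 2 treated ones. All hosts were CatchupIVM-red mice, in which a Cre at the neutrophil gene Ly6g switches on tdTomato, so every library, controls included, carries the reporter alleles. The library descriptions all begin with C57 and mark the control grafts GFP, with no further detail. Doses, treatment times, the age of the mice and the number of mice behind a library are not given in the sources used here. Each graft type is 1 tumour line as labelled, and whether a library pooled several mice is not given either. The labels do not say that replicates were separate mice, so p-values here measure the spread between these libraries, which may be partly technical. The study asked whether Sox2 in tumour cells limits how neutrophils respond to interferon.

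Conjugation of ISG15 to proteins, called ISGylation, runs through a chain like that of ubiquitin. UBA7 is the activating enzyme (E1), UBE2L6 the conjugating enzyme (E2), and HERC6 the main mouse ligase (E3), the place that HERC5 takes in humans. USP18 cleaves ISG15 from its targets and also binds the interferon receptor subunit IFNAR2, where it dampens type I interferon signalling. RNF213 is a very large ubiquitin ligase that has been reported to bind ISG15-modified proteins. Interferon receptors activate the transcription factor complex ISGF3, which includes STAT2 and IRF9, and ISGF3 binds the interferon-stimulated response element (ISRE) in promoters such as that of Isg15.

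In the GRCm38 assembly with GENCODE M21 annotation, Isg15 (ENSMUSG00000035692) lies at chr4:156199424-156200818 on the minus strand. Usp18 (ENSMUSG00000030107) lies at chr6:121245906-121270917, Uba7 (ENSMUSG00000032596) at chr9:107975505-107984060 and Ube2l6 (ENSMUSG00000027078) at chr2:84798828-84810335. Herc6 (ENSMUSG00000029798) lies at chr6:57581000-57664632 and Rnf213 (ENSMUSG00000070327) at chr11:119393100-119487418, and these 5 genes are on the plus strand. All 6 are protein-coding genes. RefSeq promoters (GRCm38.p6) were at hand for 5 of the 6 genes, all but Usp18. They were searched, from 250 bases before to 50 bases after the start, for the ISRE letters GAAANNGAAA on both strands. Isg15 had 3 overlapping matches, at 78 to 69, 72 to 63 and 66 to 57 bases before its start, and the other 4 promoters had no match. The Rnf213 window, chr11:119389849-119390148, ends upstream of the GENCODE gene given above, so the start of that annotation was not searched. Of 32851 RefSeq promoters of the same length, 3.443% held at least 1 match. The interferon gamma element TTCNNNGAA, searched in the same way, was in 8.298% of promoters and in none of the 5. The sequences of the 250 bases before the start are shown for Isg15, whose ISRE-like block is in capitals, and for Ube2l6, whose promoter window held neither motif, each 5′ to 3′ on the gene's own strand. The first is chr4:156200819-156201068 (minus strand) and the second is chr2:84798578-84798827 (plus strand).
Isg15 promoter: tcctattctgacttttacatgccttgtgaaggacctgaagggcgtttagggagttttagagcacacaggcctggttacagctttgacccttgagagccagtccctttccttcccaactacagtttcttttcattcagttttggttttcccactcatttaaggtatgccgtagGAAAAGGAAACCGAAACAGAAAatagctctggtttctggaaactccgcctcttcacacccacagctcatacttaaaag
Ube2l6 promoter: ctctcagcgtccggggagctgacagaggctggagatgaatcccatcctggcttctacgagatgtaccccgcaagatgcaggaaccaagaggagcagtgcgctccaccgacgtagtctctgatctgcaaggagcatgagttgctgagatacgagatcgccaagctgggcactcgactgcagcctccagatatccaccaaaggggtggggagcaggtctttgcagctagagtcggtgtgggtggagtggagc
A match or its absence describes only the letters in this window.

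Libraries held between 13815734 and 22986193 counts, and the reporter sequence had between 135 and 514 counts in each. Levels below are in CPM, the count relative to the scaled library size. The scaling used TMM factors from the 11274 genes that averaged 5 CPM or more over all libraries, called expressed-gene scaling. A second set of factors from 29648 genes, most of them low, is called all-gene scaling and is given as an alternative. The 2 scalings differ by a shift that is nearly the same for every gene. Over the 11270 genes in both, all-gene scaling moved log2 fold changes by a median of 0.55 for treatment in control tumours, -0.27 for treatment in Sox2Hi tumours and -0.82 for the interaction. Counts per kilobase over 1466 olfactory and vomeronasal receptor genes were used as an estimate of background. Extended over all exons, it came in control tumours to 5.02% to 8.39% of counts when naive and 1.58% to 1.74% when treated, and in Sox2Hi tumours to 3.63% to 3.92% and 4.04% to 4.96%. Background at that rate would make up at most 0.056% of Isg15 counts, but up to 26.7% of Uba7 and 19.0% of Rnf213 counts in a library. Neutrophil markers were present in every library. The 10 marker genes were summed, among them S100a8, S100a9, Csf3r and Cxcr2, and made up 1.45% to 2.28% of counts in naive and 2.91% to 3.02% in treated control libraries. In Sox2Hi libraries they made up 1.49% to 1.99% when naive and 1.81% to 2.16% when treated. Ly6g, the gene that drives the reporter, was low, with a mean of 2.47 CPM in control naive and 14.6 CPM in control treated libraries. Markers of other cells were detected too: fibroblast genes summed to 0.030% to 0.087% of counts in control naive and 0.0062% to 0.0071% in control treated libraries, and keratinocyte genes to 0.114% to 0.329% and 0.053% to 0.113%. Between naive grafts, plasma cell genes summed to 0.035% to 0.047% in control and 0.069% to 0.434% in Sox2Hi libraries. Macrophage genes were at 0.071% to 0.106% and 0.114% to 0.156%, and erythroid genes at 0.063% to 0.166% and 0.031% to 0.069%. No marker gene of any list was at 0 in all libraries of a group. In bulk libraries a change in the make-up of the cells and a change in RNA per cell cannot be told apart.

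Isg15 was by far the most abundant of the 6 transcripts. It ranked between 68 and 333 among the 11274 genes tested, depending on the library. Per kilobase of annotated exon, its mean in control naive libraries was 922 CPM, followed by Ube2l6 at 57, Usp18 at 13.8, Herc6 at 11.5, Rnf213 at 2.79 and Uba7 at 2.13. These values assume that reads fall evenly over the exons. The exon lengths join all annotated transcripts, with 6692 bases for Uba7, 9292 for Herc6, 2790 for Usp18 and 16888 for Rnf213. The longest single transcripts have 3620, 4767, 1771 and 16716 bases, in the same sequence of genes. The order of the genes below Ube2l6 therefore depends on which length is used. The ranges of Usp18 and Herc6 overlapped there, as did those of Rnf213 and Uba7. In control treated libraries the means per kilobase were 3772 for Isg15, 327 for Ube2l6, 56.9 for Herc6, 39.2 for Usp18, 9.0 for Rnf213 and 4.94 for Uba7, and no neighbouring ranges overlapped. The modifier thus had the highest mean in both groups. Over the joined exons the activating enzyme had the lowest mean in both, and Herc6 stood above Usp18 in the treated one. In Sox2Hi libraries the order of the means was Isg15, Ube2l6, Usp18, Herc6, Uba7, Rnf213 when naive, and Isg15, Ube2l6, Herc6, Usp18, Rnf213, Uba7 when treated.

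**Figure D1:**
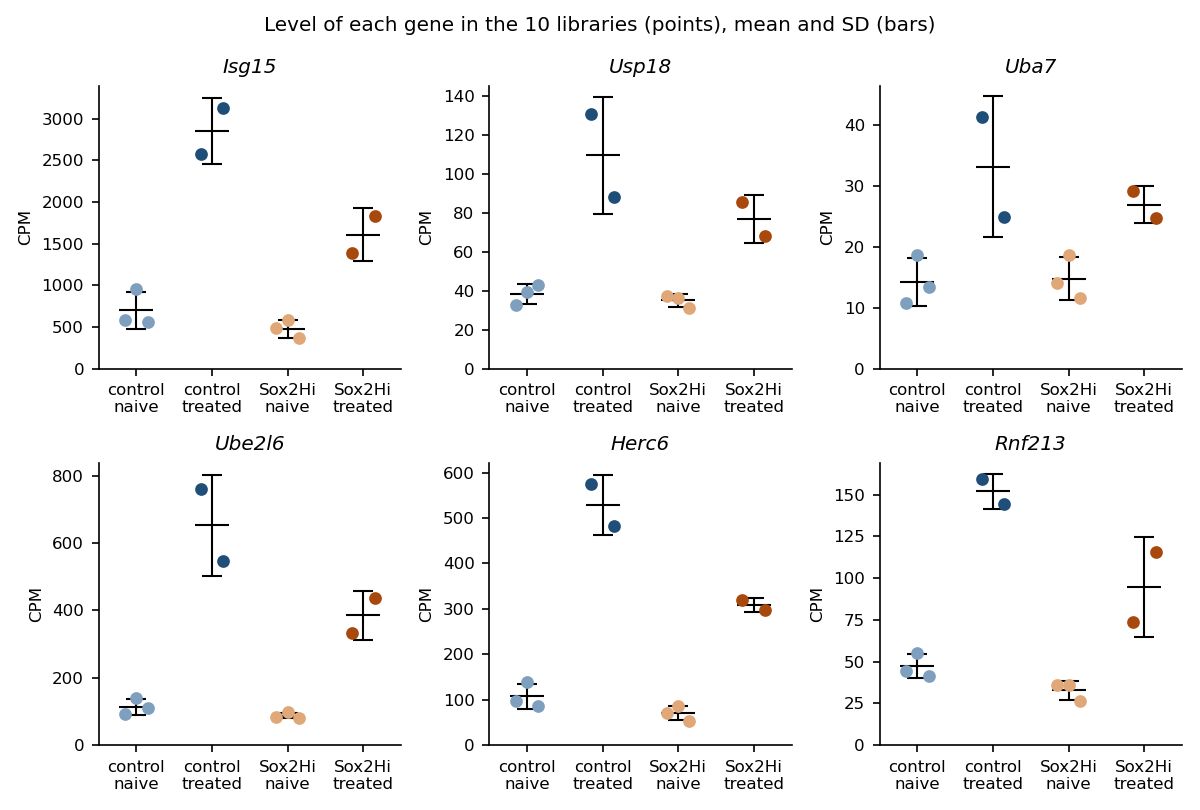
CPM (expressed-gene scaling) of each of the 6 genes in each of the 10 libraries, as points, with bars for the group mean and SD, on axes that start at 0 and differ between panels. Treated libraries lie above naive ones of the same graft for all 6 genes, and Isg15 reaches 3132 CPM in control treated replicate 2.

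In control tumours, all 6 genes were higher in treated than in naive neutrophils. Isg15 stood at 581, 951 and 558 CPM in the 3 naive libraries and at 2572 and 3132 CPM in the 2 treated ones. Every treated library was above every naive one, and the means were 697 ± 221 (SD, n = 3) and 2852 ± 396 (SD, n = 2). The log2 fold change was 2.03 (SE 0.27), a 4.09-fold rise, with an adjusted p of 0.00031 by edgeR's quasi-likelihood test with Benjamini-Hochberg adjustment, which also gave the adjusted p-values that follow. Ube2l6, the E2 of the chain, rose the most. Its levels were 91.7, 139 and 110 CPM in naive and 759 and 547 CPM in treated libraries, a log2 fold change of 2.52 (SE 0.21, adjusted p = 4.6e-05). Herc6, the E3, went from 96.6, 139 and 86.1 CPM to 576 and 482 CPM, a log2 fold change of 2.30 (SE 0.23, adjusted p = 8.6e-05). Neither gene's groups overlapped.

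Uba7, the E1, had the smallest fold change of the 6 genes in control tumours under expressed-gene scaling. The background estimate came to a mean of 22.3% of its counts in naive and 3.70% in treated libraries. A background share that falls with treatment lowers a fold change, and its part in the smaller rise was not tested. It was at 10.8, 18.6 and 13.4 CPM in naive and at 41.3 and 24.9 CPM in treated libraries, and the groups did not overlap. Its log2 fold change was 1.21 (SE 0.28, adjusted p = 0.0041), and it was 0.66 (adjusted p = 0.065) when libraries were scaled by their totals alone. The protease Usp18 went from 32.8, 39.4 and 43.0 CPM to 131 and 88.2 CPM, with a log2 fold change of 1.51 (SE 0.20, adjusted p = 0.00029). Rnf213 went from 44.6, 55.2 and 41.5 CPM to 159 and 145 CPM, with a log2 fold change of 1.69 (SE 0.22, adjusted p = 0.00027). Both rose in every treated library relative to every naive one. Thus 6 of 6 genes were called higher, where 24.1% of all 11274 genes were called higher and 33.1% lower. The 6 genes had a median log2 fold change of 1.86 and all genes one of -0.18. No overlap in the higher direction was seen for 29.6% of all genes. Under all-gene scaling 6 of 6 were called higher as well, against 18.7% of genes. Markers of neutrophils moved in the same comparison, with 8 of 10 called higher and a median log2 fold change of 1.36, while 6 of 6 fibroblast markers were called lower with a median of -3.05. The part of these in the rise was not tested.

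In Sox2Hi tumours the same 6 genes were higher after treatment. Isg15 stood at 485, 577 and 361 CPM in naive and at 1381 and 1832 CPM in treated libraries, with means of 474 ± 108 (SD, n = 3) and 1607 ± 319 (SD, n = 2). The groups did not overlap, and the log2 fold change was 1.76 (SE 0.27, adjusted p = 0.0031), or 1.48 (adjusted p = 0.056) without Sox2Hi treated replicate 2. Ube2l6 went from 83.9, 96.7 and 81.2 CPM to 334 and 438 CPM, a log2 fold change of 2.14 (SE 0.21, adjusted p = 0.00032). Herc6 changed as much as the E2. It went from 71.1, 85.3 and 53.8 CPM to 320 and 297 CPM, a log2 fold change of 2.14 (SE 0.23, adjusted p = 0.00049). Usp18 went from 37.4, 36.4 and 31.1 CPM to 85.7 and 67.9 CPM, a log2 fold change of 1.14 (SE 0.20, adjusted p = 0.0054). Rnf213 went from 36.0, 36.0 and 26.2 CPM to 73.7 and 116 CPM, a log2 fold change of 1.53 (SE 0.22, adjusted p = 0.0019). None of these groups overlapped, and Rnf213 was the gene whose treated libraries lay farthest apart in relative terms.

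Uba7 was at the edge of the threshold in Sox2Hi tumours. Its levels were 14, 18.6 and 11.6 CPM in naive and 29.1 and 24.8 CPM in treated libraries, without overlap. The log2 fold change was 0.87 (SE 0.28, adjusted p = 0.048), and under all-gene scaling it was 0.60 (adjusted p = 0.20). Leaving out single libraries gave adjusted p-values above 0.05 in 8 of 10 fits. In all, 6 of 6 genes were called higher in Sox2Hi tumours, where 15% of all genes were called higher and 6.57% lower, and 37% of all genes had no overlap in the higher direction. The medians were 1.65 for the 6 genes and 0.09 for all genes. Under all-gene scaling 5 of 6 were called higher, against 1.79% of genes. When the Sox2Hi libraries were fitted alone with the replicate number as a block, only Ube2l6 was called (2.00, adjusted p = 0.034), and 0.319% of all genes were called higher in that fit. The other folds there were 1.90 for Herc6 (adjusted p = 0.050), 1.51 for Isg15 (0.060), 1.28 for Rnf213 (0.066), 0.97 for Usp18 (0.066) and 0.65 for Uba7 (0.14), all by edgeR on the log2 scale. Same-numbered Sox2Hi naive and treated libraries deviated with r = -0.280 and -0.071. These values show no pairing, but with a treated group of 2, whose deviations mirror each other, they cannot exclude it. Of the neutrophil markers, 4 of 10 were called higher here with a median log2 fold change of 0.70. Fibroblast markers were called lower in 4 of 6 cases (median -1.68) and erythroid markers in 4 of 4 (median -3.24). The part of these in the result was not tested.

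**Figure D2:**
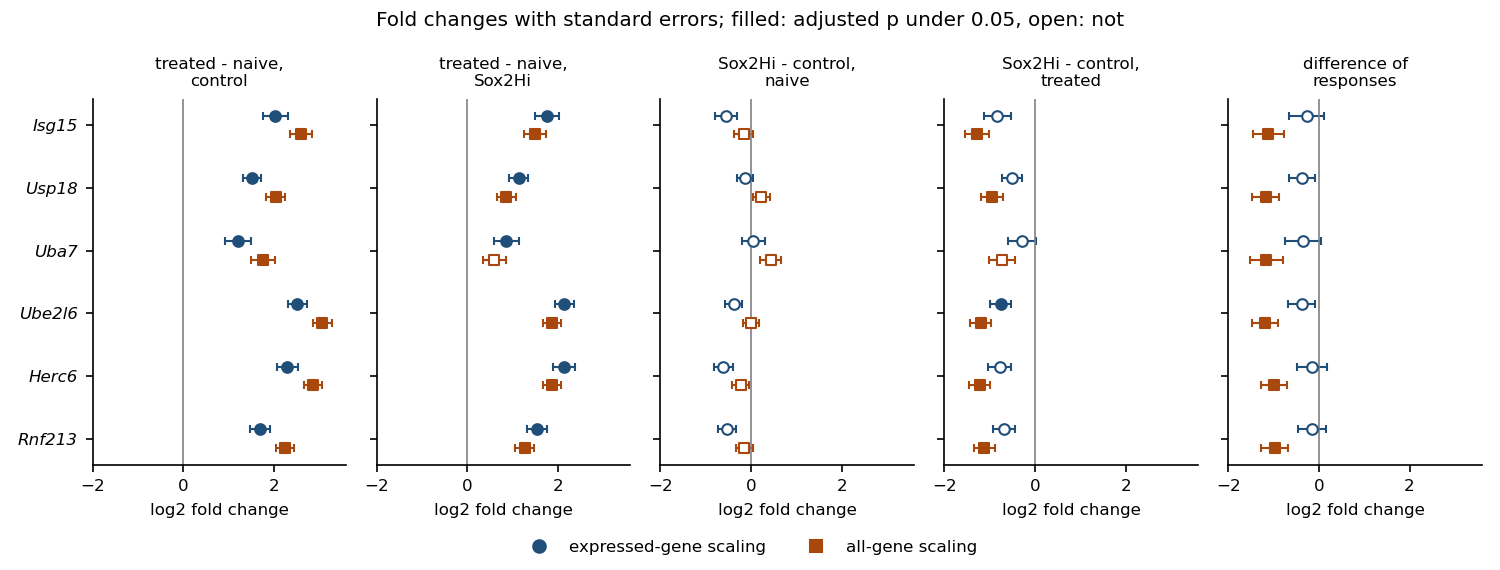
Log2 fold changes of the 6 genes in the 5 comparisons, with SE as bars, under expressed-gene scaling (circles) and all-gene scaling (squares); filled symbols have an adjusted p under 0.05. Both treatment comparisons lie to the right of 0 for all 6 genes, and the interaction is filled only for the squares.

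Before treatment, 4 of the 6 genes had overlapping levels in the 2 grafts. Herc6 and Rnf213 were the members whose naive groups did not overlap: each of the 3 Sox2Hi naive libraries was below each of the 3 control naive ones. Non-overlap in that direction was seen for 21.8% of all genes. Their log2 differences (Sox2Hi minus control) were -0.61 (SE 0.21, adjusted p = 0.080) for Herc6 and -0.52 (SE 0.20, adjusted p = 0.11) for Rnf213 by edgeR's quasi-likelihood test. Isg15 had a difference of -0.55 (SE 0.25, adjusted p = 0.18) and Ube2l6 one of -0.38 (SE 0.19, adjusted p = 0.24), both with overlapping libraries. Usp18 was at -0.14 (95% interval -0.49 to 0.22) and Uba7 at 0.05 (95% interval -0.45 to 0.55). The intervals here and below are approximate: they assume a normal spread around the estimate and are narrower than the F-test would give. None of the 6 genes was called, where 2.1% of all genes were called higher and 11.9% lower. At an unadjusted p under 0.05 there were 3 of 6, against 26.6% of all genes, and DESeq2 called 0 of 6, where it called 10.8% of all genes lower. Naive libraries with the same replicate number deviated together, and with that number as a block in a fit of the naive libraries alone, Herc6 (-0.56, adjusted p = 0.015), Rnf213 (-0.48, adjusted p = 0.027) and Isg15 (-0.48, adjusted p = 0.040) were called lower. That fit called 13.7% of all genes lower and 8.3% higher. Under all-gene scaling none was called, where 1.66% of all genes were called higher and 0.209% lower. The median of the 6 genes was then -0.07, and Usp18 (0.23) and Uba7 (0.43) were on the other side of 0.

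After treatment, Sox2Hi libraries were below both control libraries for 5 of the 6 genes, all but Uba7. Isg15 was at 1381 and 1832 CPM in Sox2Hi against 2572 and 3132 CPM in control treated libraries. The log2 difference was -0.83 (SE 0.30), which is 1.78-fold lower in Sox2Hi, with an adjusted p of 0.075 by edgeR's quasi-likelihood test. Ube2l6, at 334 and 438 against 759 and 547 CPM, was the only gene called, at -0.76 (SE 0.23, adjusted p = 0.043). The E3 was just outside the threshold. Herc6 had a log2 difference of -0.78 (SE 0.26, adjusted p = 0.054), Rnf213 one of -0.68 (SE 0.24, adjusted p = 0.070) and Usp18 one of -0.51 (SE 0.22, adjusted p = 0.12). Uba7 was at 29.1 and 24.8 against 41.3 and 24.9 CPM, and its difference was -0.30 (SE 0.31, adjusted p = 0.53). Non-overlap in the lower direction was seen for 26.3% of all genes. Thus 1 of 6 was called lower, where 5.87% of all genes were called lower and 15% higher, and 5 of 6 had an unadjusted p under 0.05, against 35.9% of all genes. The median was -0.72 for the 6 genes and 0.04 for all genes. Under all-gene scaling 5 of 6 were called lower, where 9.57% of all genes were, with a median of -1.16. DESeq2 also called 5 of 6, but its share of all genes called lower in this comparison is not reported here, so that count stands without a background. The alternatives that left out no library called between 769 and 5404 of all genes, higher or lower, against 2353 in the main fit. The single call was absent from 7 of the 10 fits that left out a library, and without control naive replicate 2 there were 4 calls. Those 10 fits called between 284 and 2899 of all genes, higher or lower. With the replicate number as a block over all 10 libraries there were also 4, and that fit called 9.83% of all genes lower. In a fit of the treated libraries alone with that block, Herc6 was the 1 gene called (-0.78, adjusted p = 0.048), where 2.12% of all genes were called lower. Isg15 (adjusted p = 0.053), Ube2l6 (0.092) and Rnf213 (0.094) were not called in that fit by edgeR. Same-numbered treated libraries of the 2 grafts deviated with r = -0.095. In groups of 2 the deviations mirror each other, so this single value can neither show nor exclude pairing. Of the neutrophil markers, 4 of 10 were called lower in Sox2Hi treated libraries, and all 10 had negative log2 differences, from -1.35 to -0.32. Their median was -0.73, which is close to that of the 6 genes. Their part in the difference was not tested.

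The interaction asks whether the response to treatment differed between the grafts. All 6 genes had negative estimates (lower response in Sox2Hi tumours), although Herc6 (0.05) and Rnf213 (0.03) were positive when libraries were scaled by totals only. Under expressed-gene scaling none of the differences in response was called by edgeR's quasi-likelihood test, at adjusted p-values from 0.41 to 0.78. At an unadjusted p under 0.05 there were 0 of 6, against 32.5% of all genes, and DESeq2 called 0 of 6, where it called 15.1% of all genes lower. Of all genes, 2.84% were called lower and 16.9% higher. For Isg15 the difference was -0.27 with an approximate 95% interval from -1.03 to 0.49, so that neither an equal response nor one lower by 1 log2 unit lay outside it. For Herc6 it was -0.16 (95% interval -0.81 to 0.49), for Ube2l6 -0.38 (-0.97 to 0.21) and for Usp18 -0.37 (-0.94 to 0.19). For Uba7 it was -0.35 (-1.13 to 0.44) and for Rnf213 -0.16 (-0.77 to 0.46). Under all-gene scaling 6 of 6 were called lower, with log2 values from -1.20 for Ube2l6 to -0.98 for Rnf213 and adjusted p-values from 0.013 to 0.038. That scaling called 16.2% of all genes lower. All genes shifted by a median of -0.82 between the scalings, so this call rested on the scaling. The interaction and the other 4 comparisons are built from the same 10 libraries and share them.

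Ratios within a library do not depend on the scaling. Relative to Isg15, Usp18 went from a mean log2 ratio of -4.15 to -4.72 with treatment in control tumours and from -3.74 to -4.38 in Sox2Hi tumours. Naive and treated libraries overlapped in control but not in Sox2Hi tumours. For Uba7 the means went from -5.60 to -6.47 and from -5.01 to -5.89, and in both grafts each treated library lay below each naive one. Its naive ratios were -5.75, -5.68 and -5.38 in control and -5.11, -4.96 and -4.96 in Sox2Hi tumours, without overlap. For Ube2l6 and Herc6 the means were higher in treated libraries. Ube2l6 went from -2.59 to -2.14 in control and from -2.42 to -2.06 in Sox2Hi tumours, and Herc6 from -2.69 to -2.43 and from -2.76 to -2.37. Naive and treated libraries overlapped for both genes in control but not in Sox2Hi tumours. Without control treated replicate 1, the treated control values were -2.52 for Ube2l6 and -2.70 for Herc6, inside the naive range. Rnf213 went from -3.85 to -4.22 and from -3.85 to -4.11, with overlapping libraries in both grafts. With the background estimate subtracted, Rnf213 went from -4.12 to -4.25 and from -4.05 to -4.21, and Uba7 from -5.97 to -6.52 and from -5.19 to -6.04. Usp18 then went from -4.20 to -4.73 in control tumours, a fall close to that of Uba7, and from -3.77 to -4.40 in Sox2Hi tumours. In control treated libraries the Uba7 ratios of replicates 1 and 2 were -5.96 and -6.97, a gap as large as the change of the mean with treatment. Isg15 itself rose by 2.03 and 1.76, while all genes had median log2 fold changes of -0.18 and 0.09. A gene at those medians would also fall relative to Isg15, so a fall is not particular to a member. How many of all genes had ratios without overlap was not counted. The ratios are not corrected for gene length, and they were not tested.

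**Figure D3:**
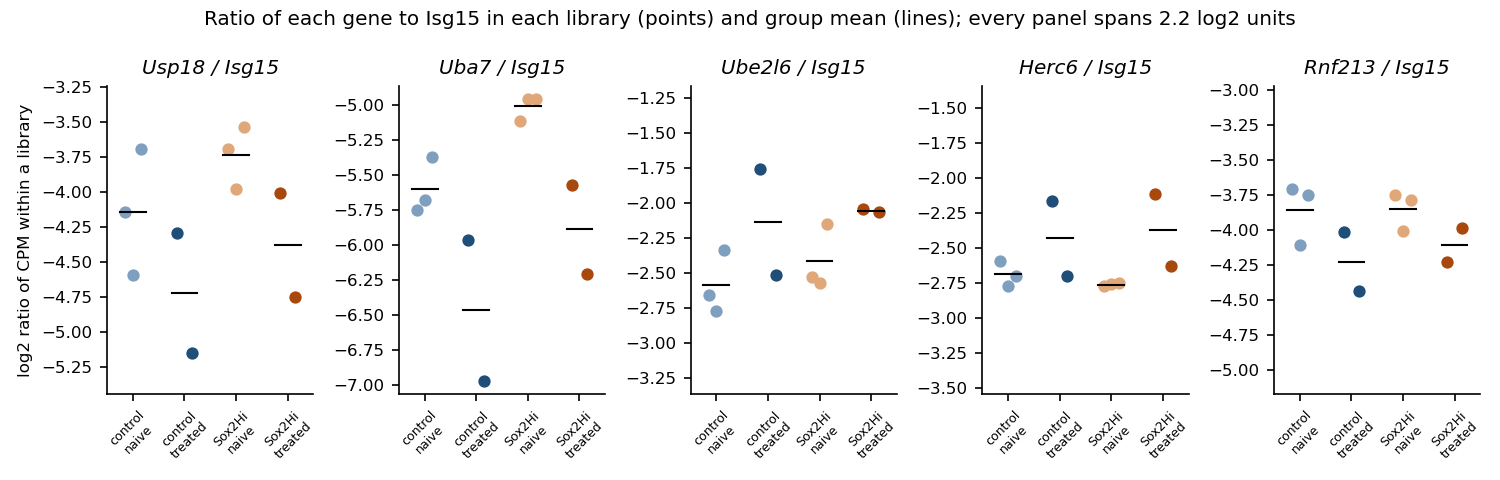
Log2 ratio of the CPM of each gene to that of Isg15 in the same library (points) with group means (lines); each panel has its own range, and all span 2.2 log2 units. The Uba7 ratio falls from a mean of -5.60 to -6.47 with treatment in control tumours, while that of Ube2l6 goes from -2.59 to -2.14.

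Relative to the neutrophil markers, a measure added after the values were seen, treated libraries of the 2 grafts had overlapping Isg15 shares. Isg15 counts came to 3.90% ± 0.58 (SD, n = 3) of the summed counts of the 10 markers in naive and 7.04% ± 1.17 (SD, n = 2) in treated control tumours. In Sox2Hi tumours it came to 3.07% ± 0.48 (SD, n = 3) and 7.28% ± 1.45 (SD, n = 2). Treated libraries were at 6.22% and 7.87% in control and at 6.26% and 8.30% in Sox2Hi tumours, so the grafts overlapped, while treated and naive libraries did not. Herc6 went from 0.604% to 1.30% in control and from 0.454% to 1.40% in Sox2Hi tumours, and Ube2l6 from 0.655% to 1.61% and from 0.574% to 1.75%. Rnf213 went from 0.269% to 0.374% and from 0.212% to 0.430%. For these, too, naive and treated libraries did not overlap. The other two genes differed from that pattern in control tumours. Uba7 was at 0.0815% in naive and 0.0812% in treated libraries, and Usp18 was at 0.227% and 0.269% with overlapping libraries. In Sox2Hi tumours Uba7 went from 0.0959% to 0.122%, with overlap, and Usp18 from 0.228% to 0.348%, without. The marker genes themselves changed with treatment, as given above, so this share is a ratio of 2 quantities that both moved. How many of all genes had shares without overlap was not counted, here or for the 9 markers below. Il1r2, an interleukin 1 decoy receptor gene, made up 65.5% to 69.0% of the marker sum in control naive, 37.0% to 49.3% in control treated, 63.0% to 68.5% in Sox2Hi naive and 51.6% to 51.8% in Sox2Hi treated libraries. Its own log2 fold changes with treatment were 0.54 (adjusted p = 0.097) and 0.16 (adjusted p = 0.67) by edgeR. Relative to the other 9 markers, Isg15 was at 12.1% in naive and 12.7% in treated control libraries, which overlapped, and at 9.21% and 15.1% in Sox2Hi libraries, which did not. On that measure Herc6 went from 1.86% to 2.30% and from 1.36% to 2.90%, and Ube2l6 from 2.02% to 2.81% and from 1.73% to 3.62%, both without overlap. Rnf213 went from 0.829% to 0.664% in control and from 0.634% to 0.891% in Sox2Hi tumours, and Usp18 from 0.700% to 0.470% and from 0.683% to 0.721%, so that the direction of both in control tumours depended on whether Il1r2 was counted. Uba7 went from 0.252% to 0.141% and from 0.289% to 0.253%.

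**Figure D4:**
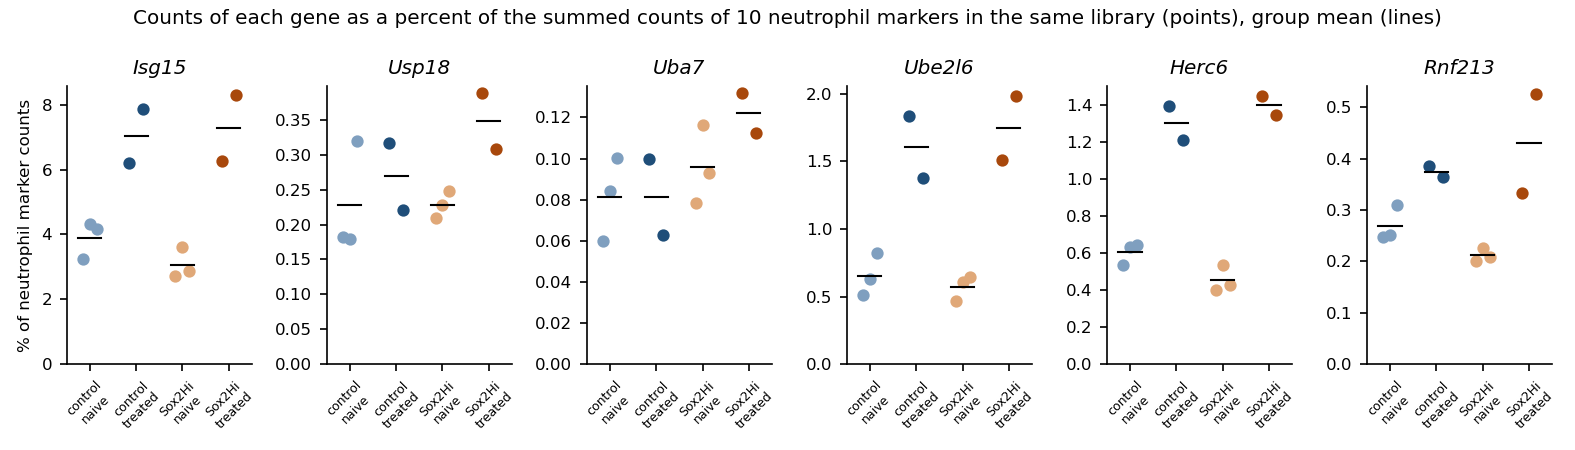
Counts of each gene as a percent of the summed counts of 10 neutrophil markers in the same library (points, axis from 0) with group means (lines). Isg15 reaches means of 7.04% and 7.28% in treated control and Sox2Hi libraries, which overlap, while Uba7 has means of 0.0815% and 0.0812% in the control groups.

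The signalling chain that switches on interferon-stimulated genes rose with treatment too. Of 9 genes from the type I interferon receptor to ISGF3, with Irf1 and Irf7 added, 8 were called higher in control tumours (median log2 1.25) and 7 in Sox2Hi tumours (median 0.76). Of all genes, 24.1% and 15% were called higher in these comparisons. None was called between grafts in either state or in the interaction under expressed-gene scaling. Under all-gene scaling 2 of the 9 were called higher in Sox2Hi naive libraries, 6 lower in Sox2Hi treated ones and 6 lower in the interaction, against the 1.66%, 9.57% and 16.2% of all genes given above. Stat2 went up by 1.52 (SE 0.22, adjusted p = 0.00043) and 1.16 (adjusted p = 0.0076) in control and Sox2Hi tumours by edgeR's quasi-likelihood test, and Irf9 by 0.95 (adjusted p = 0.0020) and 0.75 (adjusted p = 0.022). Irf7, an amplifier of the interferon response, had 1.92 (adjusted p = 0.00048) and 1.33 (adjusted p = 0.012), and Irf1 had 1.56 and 1.5. Under all-gene scaling 8 and 3 of the 9 were called higher with treatment, and in Sox2Hi tumours Stat2 (0.89, adjusted p = 0.052) and Irf9 (0.49, adjusted p = 0.13) were not. Of all genes, that scaling called 18.7% and 1.79% higher.

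Genes whose products are known to act with ISG15 were mixed. Of 11 tested, 7 were called higher and 3 lower in control tumours (median 0.64), and 3 each way in Sox2Hi tumours (median 0.42). Of all genes, 24.1% were called higher and 33.1% lower in control tumours, and 15% and 6.57% in Sox2Hi tumours. The same shares stand beside the counts of substrates below. Under all-gene scaling 13 passed the filter, of which 8 were called higher and 2 lower in control tumours and 0 and 1 in Sox2Hi tumours. That scaling called 18.7% of all genes higher in control tumours and 1.79% in Sox2Hi tumours. It called 4533 and 539 of the 29648 genes lower in the same comparisons. Trim25, a ubiquitin ligase reported to have ISG15 ligase activity, was at 1.21 (SE 0.19, adjusted p = 0.00069) and 0.74 (adjusted p = 0.024) by edgeR, the second at 0.48 (adjusted p = 0.14) under all-gene scaling. Arih1, a ligase of the RING-between-RING family that has been reported to attach ISG15, was at 0.64 (adjusted p = 0.0034) in control tumours and 0.42 (adjusted p = 0.056) in Sox2Hi tumours. Itgb2, the beta chain of the integrin LFA-1 to which free ISG15 binds, was at 1.47 and 0.58, the second not called. Skp2, a ubiquitin ligase subunit known from cell cycle control, fell by 2.49 (SE 0.27, adjusted p = 0.00012) and by 1.07 (adjusted p = 0.014), and its level was higher in Sox2Hi than in control treated libraries by 1.44 (adjusted p = 0.011), or 0.99 (adjusted p = 0.059) under all-gene scaling. Usp5, a ubiquitin-specific protease, fell by 1.12 and 0.78 in the 2 grafts; under all-gene scaling neither was called. Of 18 proteins reported as ISG15 substrates, 9 had transcripts called higher and 2 lower in control tumours (median 0.40), and 4 and 0 in Sox2Hi tumours (median 0.20, and -0.07 under all-gene scaling). The RNA sensors Ifih1 (1.55 and 1.26) and Ddx58 (1.1 and 1.2) were among those called higher in both. Pkm, a glycolytic enzyme, was at 1.25 in control tumours and at 0.09 in Sox2Hi tumours, and it was higher in Sox2Hi than in control naive libraries by 0.80 (adjusted p = 0.029). The antiviral gene Mx1 was lower there by 0.73 on the log2 scale (-0.73, adjusted p = 0.045), or -0.35 (adjusted p = 0.24) under all-gene scaling, and the cytosolic DNA pathway gene Tmem173 was higher by 0.65 (adjusted p = 0.025).

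Relatives of the 6 genes in other conjugation chains were described in the same way. Over all genes, 24.1% were called higher and 33.1% lower in control tumours, and 15% and 6.57% in Sox2Hi tumours. Between treated grafts 15% were called higher and 5.87% lower in Sox2Hi libraries, and between naive grafts 2.1% and 11.9%. These shares stand beside the counts of modifiers here and of E1, E2, HERC and USP genes below. Of 13 other ubiquitin-like modifiers, 7 were called higher in control tumours (median 0.48) and 1 in Sox2Hi tumours (median 0.18, and -0.17 under all-gene scaling). The polyubiquitin gene Ubb rose in control tumours (1.36, adjusted p = 0.00085) by edgeR's test and was at 0.44 (adjusted p = 0.17) in Sox2Hi tumours. Atg12, a modifier of autophagy, rose by 1.06 in control tumours. The 1 gene called in Sox2Hi tumours was Ubd, which encodes FAT10, another interferon-responsive modifier (2.45, SE 0.65, adjusted p = 0.025); in control tumours it was at 0.97 (adjusted p = 0.20). Under all-gene scaling neither value was called. Its levels ran from 2.59 to 16.3 CPM in control naive libraries alone. Between treated grafts, 3 of the 13 were called lower in Sox2Hi libraries, among them Ubb (-0.94) and Atg12 (-0.56).

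Among 8 other E1 genes, 1 was called higher and 2 lower in control tumours (median -0.12, and 0.26 under all-gene scaling), and 0 and 3 in Sox2Hi tumours (median -0.34). Uba1, the main ubiquitin E1, had 0.12 (adjusted p = 0.59) and -0.16 (adjusted p = 0.55) by edgeR. Uba6, which also activates FAT10, fell by 0.54 (adjusted p = 0.012) and 0.56 (adjusted p = 0.028), and the NEDD8 E1 subunit gene Uba3 fell by 0.49 and 0.74. Atg7, the autophagy E1, rose by 0.77 in control tumours, and the SUMO E1 subunit gene Sae1 fell by 0.74 in Sox2Hi tumours. Under all-gene scaling Uba3 and Uba6 were at 0.04 and -0.00 in control tumours and were not called there, and Sae1 was at -1.01 (adjusted p = 0.050) in Sox2Hi tumours, just outside the threshold. Of 20 other E2 genes, 11 were called higher and 1 lower in control tumours (median 0.48), and 1 each way in Sox2Hi tumours (median 0.0015, and -0.27 under all-gene scaling). Ube2l3, the closest relative of Ube2l6, rose by 0.66 (SE 0.15, adjusted p = 0.0041) in control tumours, against 2.52 for Ube2l6, and stood at 0.12 (adjusted p = 0.57) in Sox2Hi tumours. Ube2b and Ube2d3 rose by 1.08 and 1.04 in control tumours, and Ube2f, an E2 for NEDD8, by 0.48 in Sox2Hi tumours, where all-gene scaling gave 0.21 (adjusted p = 0.55). Between grafts, Ube2g2 was higher in Sox2Hi naive libraries (0.73), and 6 E2 genes were lower in Sox2Hi treated ones, among them Ube2b (-0.69), Ube2m (-0.56) and Ube2l3 (-0.55). Ube2c, an E2 of mitosis, fell by 1.28 (adjusted p = 0.0021) and 1.35 (adjusted p = 0.0079), the first at -0.77 (adjusted p = 0.064) under all-gene scaling.

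The 4 other HERC genes went both ways in control tumours, 2 higher and 2 lower (median -0.10, and 0.47 under all-gene scaling). Herc1 had 0.52 (adjusted p = 0.016) and Herc4 0.80 (adjusted p = 0.0022), while Herc2 had -0.71 (adjusted p = 0.0096) and Herc3 -0.86 (adjusted p = 0.012), all by edgeR's quasi-likelihood test; under all-gene scaling Herc2 and Herc3 were not called. In Sox2Hi tumours Herc3 was at 0.87 (adjusted p = 0.026) and the other 3 were not called, and Herc3 was also higher in Sox2Hi than in control treated libraries (1.11, adjusted p = 0.018). Under all-gene scaling these were 0.61 (adjusted p = 0.13) and 0.66 (adjusted p = 0.089). Of 26 other USP genes, 6 were called higher and 5 lower in control tumours (median -0.05, and 0.46 under all-gene scaling), and 4 and 0 in Sox2Hi tumours (median -0.04). These counts were near or under the shares of all genes, which were 24.1% and 33.1% in control and 15% and 6.57% in Sox2Hi tumours. Usp25 rose by 1.00 and 0.73, Usp32 by 1.52 and 1.08, and Usp10 fell by 1.29 in control tumours. Usp38 rose by 0.72 in Sox2Hi tumours, and Usp10 was higher in Sox2Hi than in control treated libraries (1.14). Under all-gene scaling none of the 28 USP genes then tested was called in Sox2Hi tumours, with Usp25 at 0.47 (adjusted p = 0.15), Usp32 at 0.81 (adjusted p = 0.065) and Usp38 at 0.45 (adjusted p = 0.24). Usp10 was at 0.70 (adjusted p = 0.12) between treated grafts. Usp18 had 1.51 and 1.14 on the same scale.

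**Figure D5:**
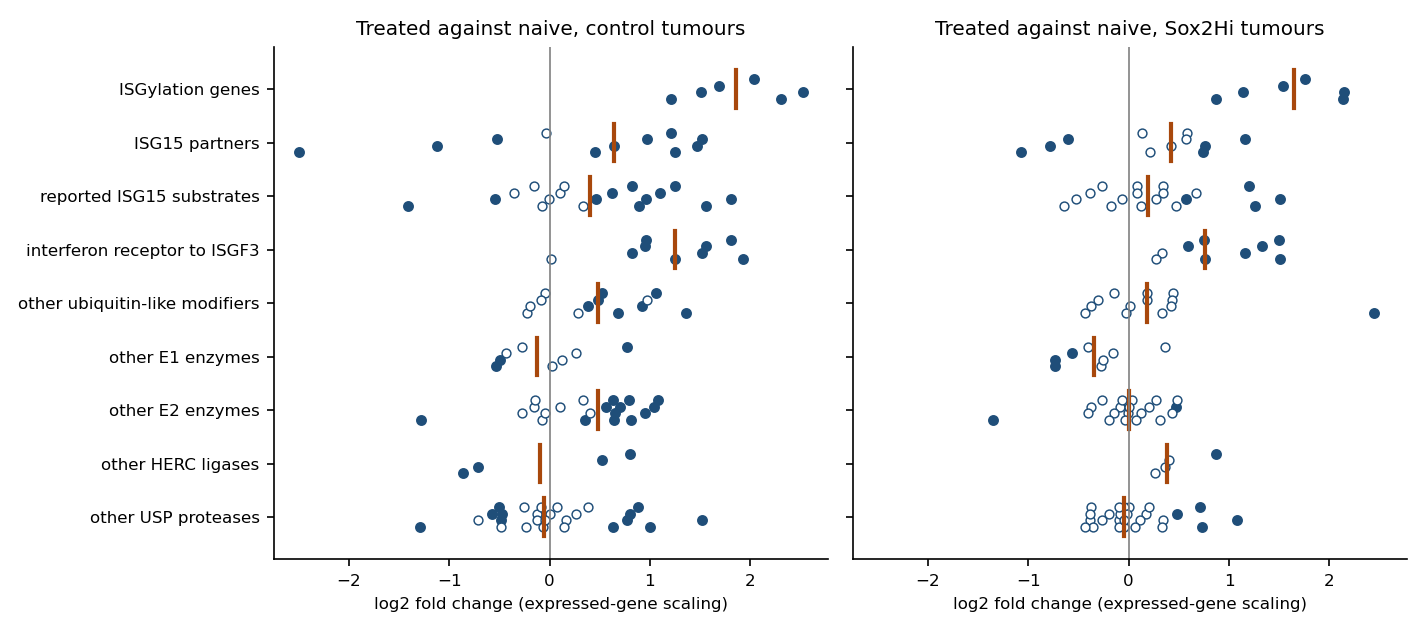
Log2 fold change with treatment of each tested gene of the 6-gene set, its partners, reported substrates and signalling chain, and its enzyme relatives (points; filled, adjusted p under 0.05; orange bar, median), in control and Sox2Hi tumours on 1 shared axis. The 6 genes have medians of 1.86 and 1.65, and the other E1 genes medians of -0.12 and -0.34.

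The genes whose levels followed Isg15 most closely over the 10 libraries, by Pearson's r of log2(CPM + 1) among 11273 genes, were Gm45193 (0.995), Fcgr4 (0.995), Taf7 (0.994), Gbp7 (0.991) and Ifi47 (0.991). Fcgr4 encodes an Fc receptor for immunoglobulin G, and Gbp7 and Ifi47 encode interferon-inducible GTPases. Gbp7 averaged 637 ± 170 CPM (SD, n = 3) in naive and 3105 ± 41 CPM (SD, n = 2) in treated control tumours, and 419 ± 107 and 1857 ± 92 CPM in Sox2Hi tumours. Fcgr4 went from 151 to 590 CPM in control and from 94.7 to 345 CPM in Sox2Hi tumours. Under all-gene scaling 3 of the 5 were again among the first 5, and by Spearman's rho only Fcgr4 was, tied at 0.988 with Gm45193 and Gbp7, while Taf7 was at rank 70 and Ifi47 at rank 188. The other members ranked 13 (Rnf213, r = 0.987), 21 (Herc6, 0.985), 101 (Ube2l6, 0.971), 784 (Usp18, 0.916) and 1303 (Uba7, 0.872). These values describe 10 libraries in 4 groups that share the treatment contrast and the scaling, and carry no test.

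Some reads of the 6 genes can belong to other annotated genes. Gm45193, the gene most like Isg15, shares 1269 bases of exon with Herc6 on the same strand; it had 4971 counts over all libraries and Herc6 34668. Rnf213 shares 1476 bases with A930037H05Rik on the opposite strand, with 1346 against 11679 counts. A 508-base stretch of the 1560-base Ube2l6 transcript is 95.1% identical to Gm17167, which had 8658 counts. Ube2l6 had further matches to more abundant genes. The largest by counts was D10Wsu102e, 90.6% identical over 498 bases, with 179622 counts. Smchd1 (290 bases, 92.1%) had 16028 counts and Gm48377 (169 bases, 95.9%) had 10483. A stretch of 482 bases of Isg15 is 95.2% identical to AC151275.1, which had 34 counts over all 10 libraries. Since the strandedness of the counting is not given, the levels of Herc6, Rnf213 and Ube2l6 are uncertain by the reads that these could exchange.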

How the data were processed

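RNA was extracted with a microprep kit and libraries were made with a low-input kit, per the labels' protocols. The authors deposited a table of estimated counts per gene, 1 column per library. Per the submitters' processing notes, kallisto 0.44.0 and mm10 were used; the annotation and strandedness are not given in the sources used here. The counts are whole numbers, so they may be rounded estimates, and they were used as deposited. Of 55481 entries, 92 spike-in and 4 transgene sequences did not count toward library sizes and were not tested. GENCODE M21 gave symbols for 55144 of 55385 mouse genes.

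All 10 libraries entered 1 model of 4 groups in edgeR 4.0.16 (R 4.3.3), on 11274 genes that averaged 5 CPM or more, TMM factors from these and the quasi-likelihood F-test. The threshold was an adjusted p of 0.05 (Benjamini-Hochberg, over all genes tested). This filter and scaling were chosen because background reads that differ between libraries weigh on factors from low genes. Alternatives used filterByExpr, no filter, DESeq2 1.42.0, limma 3.58.1, other factors, background subtraction, replicate blocks and leaving out each library. The code was tested on simulated counts.

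The labels number the replicates. Deviations from the group means correlated between same-numbered naive libraries (r = 0.273, 0.325 and 0.474), so the numbers were taken as pairs there from this check alone. For treated grafts r was -0.095, and the numbers in the labels' descriptions differ from those in their titles.

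The 6 genes and the lists were chosen with earlier results of these data known. From each list, the 3 called genes with the largest change in a comparison are named, with genes named whatever their result; some of both are not reported here. No 2 libraries of a group agreed within sampling noise.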

Additional observations from a re-analysis of the deposited data

Results flagged for a closer look

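For 8 of 104 related genes, 4 higher and 4 lower, the response to treatment differed between the grafts, by edgeR's test of the interaction (Sox2Hi response minus control response, in log2). Of all genes, 16.9% were called higher and 2.84% lower. Of the HERC ligase genes, Herc3 had an interaction of 1.74 (adjusted p = 0.0040) and Herc2 one of 0.97 (adjusted p = 0.026). Skp2, which fell less in Sox2Hi tumours, had 1.42 (adjusted p = 0.015), and the protease gene Usp42 had 0.84 (adjusted p = 0.044). Pkm had -1.16 (adjusted p = 0.029), Ube2d3 -0.77 (adjusted p = 0.034), Ube2d2a -0.75 (adjusted p = 0.044) and Ube2b -0.66 (adjusted p = 0.047). All-gene scaling moved the interaction of all genes by a median of -0.82, so it tends to keep negative calls and to remove positive ones. Under it the 4 negative values were -1.96, -1.59, -1.58 and -1.47. They stayed past the threshold, which for that reason adds no support. Of the positive ones, Herc3 was at 0.91 (adjusted p = 0.0495), while Skp2 (0.60), Herc2 (0.14) and Usp42 (0.04) were not called. None of the 6 ISGylation genes was among these under expressed-gene scaling. Whether a single library stood apart was not tested, and groups of 2 or 3 libraries leave little to judge it by.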

How the results depend on the processing

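Of 648 recomputed fold changes of the 6 genes, 553 kept their direction and side of the threshold, 36 lost and 45 gained a call, and 14 changed sign; the cause of each was not tested. The number of the 6 genes called in treated against naive control tumours was 6 when leaving out libraries and 5 or 6 otherwise. In Sox2Hi tumours it was 4 to 6 when leaving out libraries, and 1 in the fit alone with replicate block. In naive tumours it was 0 to 1 when leaving out libraries, 2 by limma-voom and with the replicate block over all libraries, 1 with the block by description number and 3 in the fit alone with block. In treated tumours it was 0 to 4 when leaving out libraries. There it was 5 with all-gene scaling, without a filter and by DESeq2, 4 with the block, 3 with RLE factors, and 0 with totals only, limma-voom, background subtraction, the description block and the groups fitted alone, and 1 in the fit alone with block. The alternatives that left out no library also differed in how many of all genes they called, from 769 to 5404 against 2353 in the main fit. The counts of members in this paragraph are therefore not a result about the members without the share of the same fit. The interaction was 6 with all-gene scaling and without a filter. The block over all libraries also lost Uba7 in Sox2Hi tumours (5 called) and changed no call in control tumours or the interaction.

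The sign changed for values near 0. In naive tumours Usp18 was 0.23 with all-gene scaling, 0.32 without a filter and 0.065 by limma-voom, Ube2l6 was 0.10 without a filter, and Uba7 ran from -0.15 to 0.36 when leaving out libraries. In treated tumours Uba7 was 0.037 with totals only, 0.028 with the description block and -0.74 to 0.018 when leaving out libraries. In the interaction Herc6 was 0.055 with totals only, 0.0031 with the description block and -0.50 to 0.0035 when leaving out libraries, and Rnf213 was 0.026 with totals only and -0.71 to 0.13 when leaving out libraries.

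The count of all genes called (main 6456, 2433, 1576, 2353 and 2228 in the order of the report's comparisons) ran from 4875 to 6716, 199 to 3317, 4 to 1997, 284 to 2899 and 1542 to 2581 when leaving out libraries, and from 4952 to 16194, 49 to 3765, 18 to 4129, 769 to 5404 and 1304 to 10934 otherwise. The lowest naive count was without Sox2Hi naive replicate 3. Treated groups of 2 limit precision, and Uba7 had 178 to 571 counts.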
